A study of Mus musculus with 88 samples.

Results

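The data described here follow a mouse embryonic stem cell (ESC) line that was derived in 2i medium and then moved to serum. Its library, labelled 2i-S (XX line 15), was set beside its parent (2i XX line 15), another 2i XX line (line 2) and an XX line derived in serum (line 8, labelled S, read here as serum). These are 4 of the 26 RNA-seq libraries among the 88 samples of the series, chosen by their labels and not by their values. All 4 libraries, from 3 lines, are of female F1 ESCs of 129X1/SvJ and MSM/Ms mice. The lines derived in 2i or in S were at passage 3, and the culture moved to serum was at passage 3 plus 14 further passages, so medium and passage cannot be told apart. There is 1 library of the moved culture and 1 of serum line 8, hence no value has a replicate error and no test was run. The distance between the 2i XX lines is the only spread within a group, and the sources used here do not say how many animals or cultures stand behind a library.

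2i medium blocks a pair of kinases: MEK, so that ERK is no longer switched on, and GSK3, so that beta-catenin is stabilised and Wnt signalling is raised. ESCs in 2i resemble the naive epiblast of the blastocyst and are known for globally low DNA methylation, most of all in female lines, in which both X chromosomes are active. In serum with the cytokine LIF, ERK signalling runs, de novo DNA methyltransferases are made and DNA methylation is high. A culture moved from 2i to serum can be asked which parts of the serum state it shows. The methylation marks of imprinted genes are known as a part that, once lost, is not put back by de novo methylation in culture.

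The deposited values are RPKM (reads scaled by transcript length and library size) for 21942 loci, of which 12876 reached 1 RPKM in at least 1 of the 4 libraries. The sum of RPKM ran from 748013 to 802360, and read depth is unknown. All 6 ESC markers (Pou5f1, Sox2, Nanog, Zfp42, Sall4 and Esrrb) were present in the moved culture, at a summed 3634 RPKM beside 3184 in the parent, 3311 in line 2 and 2838 in line 8, and below 1 RPKM in sum in each of 2 mouse embryonic fibroblast (MEF) libraries. Fibroblast RNA differed between the libraries. The 20 fibroblast markers summed to 232 RPKM in the moved culture, 97.3 in line 8, 30.1 in the parent and 21.2 in line 2, with 4 of them listed at 0 in the parent, 2 in line 2 and none in the other two. Over the 19 markers with at least 20 RPKM in both MEF libraries, the median share of the MEF level was 1.44% in the moved culture, 0.585% in line 8 and at most 0.0278% in the 2i XX lines. Among the XY lines of the same cross it was 1.63% in serum line 12, 0.664% in 2i line 20 and 0.0274% in 2i line 23. Values for fibroblast RNA are given below beside the genes it touches. In bulk RNA, fewer cells of a type and less RNA per cell cannot be told apart.

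On a scale of log2(RPKM + 1), which understates changes of genes near or below 1 RPKM, the moved culture lay closest to serum line 8. Across the 12876 loci, Pearson's r was 0.984 with line 8, 0.955 with 2i line 2 and 0.951 with the parent. The median absolute log2 difference per locus was 0.21 to line 8 and 0.35 to the parent, beside 0.30 between the 2i XX lines themselves. Against each of the 2i XX lines, 483 loci (3.75% of those kept) stood at least 1 log2 unit higher in the moved culture and 277 (2.15%) at least 1 log2 unit lower. Against line 8, 202 loci (1.57%) stood that much higher and 91 (0.707%) lower. Set against the parent alone the shares were 5.64% higher and 5.32% lower, and against line 2 alone 6.9% higher and 3.75% lower, while line 2 itself stood higher than line 15 at 1.56% of loci and lower at 3.49%. Where the 2i XX lines differed, the moved culture stood nearer to line 2 slightly more often than to its own parent. Of 449 loci at least 1 log2 unit higher in line 15 than in line 2, it stood nearer to line 15 at 202 (45.0%), and of 201 loci higher in line 2 it stood nearer to line 15 at 95 (47.3%). For line 8, which descends from neither, the shares nearer to line 15 were 37.9% and 42.3%.

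To see how far the moved culture resembled serum line 8, loci that differ between serum and 2i were put on a scale. On it the mean of the 2i XX lines is 0 and serum line 8 is 1. A locus entered when line 8 stood at least 1 log2 unit from each of the 2i XX lines, which held for 581 loci higher in serum (4.51%) and 443 loci lower in serum (3.44%). The moved culture played no part in that choice, but its position and the choice share the 2i libraries and serum line 8. Loci were thus chosen by the same single library that stands for 1 on the scale, and such a choice can place other serum libraries below 1. Just inside the threshold among serum-high loci were Csf1 and Zfp36, both with a smallest difference of 1.001 log2 units and with positions of 1.71 and 0.81, and just outside were Arhgap29 (0.997, position 0.82) and Zfp869 (0.995, position 0.75). Among serum-low loci, Tfap2a and Rcn1 lay just inside (both 1.001, positions 0.75 and 0.85), and Mpzl2 (0.999, position 1.02) and Oat (0.998, position 0.68) just outside.

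At the loci chosen by line 8, the moved culture stood about 0.75 of the way in both directions. Its median position was 0.77 for serum-high loci (interquartile range 0.61 to 0.98) and 0.75 for serum-low loci (0.57 to 0.88). With loci chosen instead in the XY lines of the cross, these medians were 0.815 and 0.717. With loci chosen in another cross they were 0.910 and 0.832. Of the serum-high loci, 313 (53.9%) lay at or above 0.75, near or past serum, 244 lay between 0.25 and 0.75, and 24 lay below 0.25, near 2i. Of the serum-low loci, 223 (50.3%) lay near or past serum, 195 between and 25 near 2i. Of the serum-high loci 134 lay above 1, and of the serum-low loci 42. These counts cannot be compared, since a serum-low locus cannot go below 0 RPKM and several of the serum-high loci furthest past 1 are fibroblast genes. The size of the difference made little difference to the position: the median ran from 0.75 to 0.79 over 4 classes of serum-high loci by size and from 0.73 to 0.77 over those of serum-low loci. Fibroblast RNA could account for 50% or more of the level in the moved culture or in line 8 at 28 serum-high loci. At the 492 serum-high and 390 serum-low loci where it could account for under 10% in both, the median positions were 0.75 and 0.74.

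**Figure D1:**
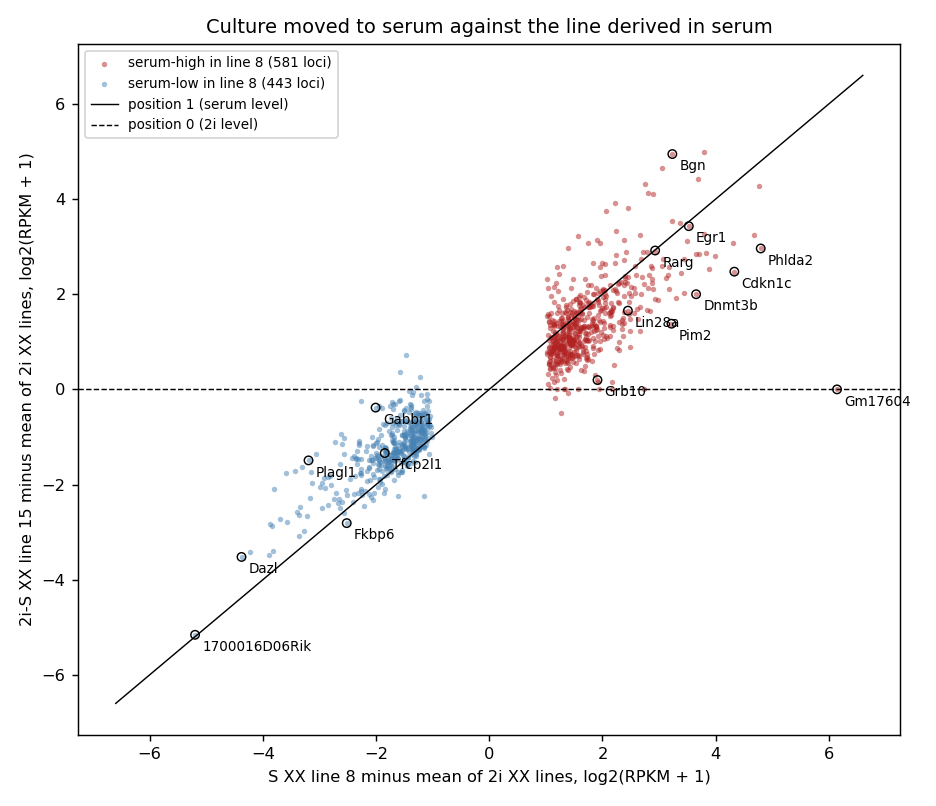
Each point is 1 locus of the scale. The horizontal axis gives serum line 8 minus the mean of the 2i XX lines and the vertical axis the culture moved to serum minus the same mean, both in log2(RPKM + 1). Serum-high loci are red and serum-low loci blue, and named genes are circled. Most points lie between the dashed line (the 2i level) and the solid line (the serum level), nearer the solid one, with medians of 0.77 and 0.75 of the way.

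The other lines of the cross, which did not set the scale, give a yardstick on its autosomal loci (557 serum-high and 395 serum-low), where the moved culture had medians of 0.78 and 0.74. The serum XY line 12 stood at 0.99 and 1.12, so it was past the moved culture in both directions. The 2i XY lines 20 and 23 stood at 0.27 and 0.24 for serum-high loci and at 0.29 and 0.40 for serum-low loci, which is off the 2i XX level but well short of the moved culture. In another cross (129X1/SvJ and C57BL6), 2i XX lines 3 and 4 stood between −0.01 and 0.09, and serum XX lines 17 and 46 at 0.82 and 0.89 for serum-high loci and 0.58 and 0.51 for serum-low loci. The moved culture was thus below the serum lines of either cross for serum-high loci and between them for serum-low loci.

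**Figure D2:**
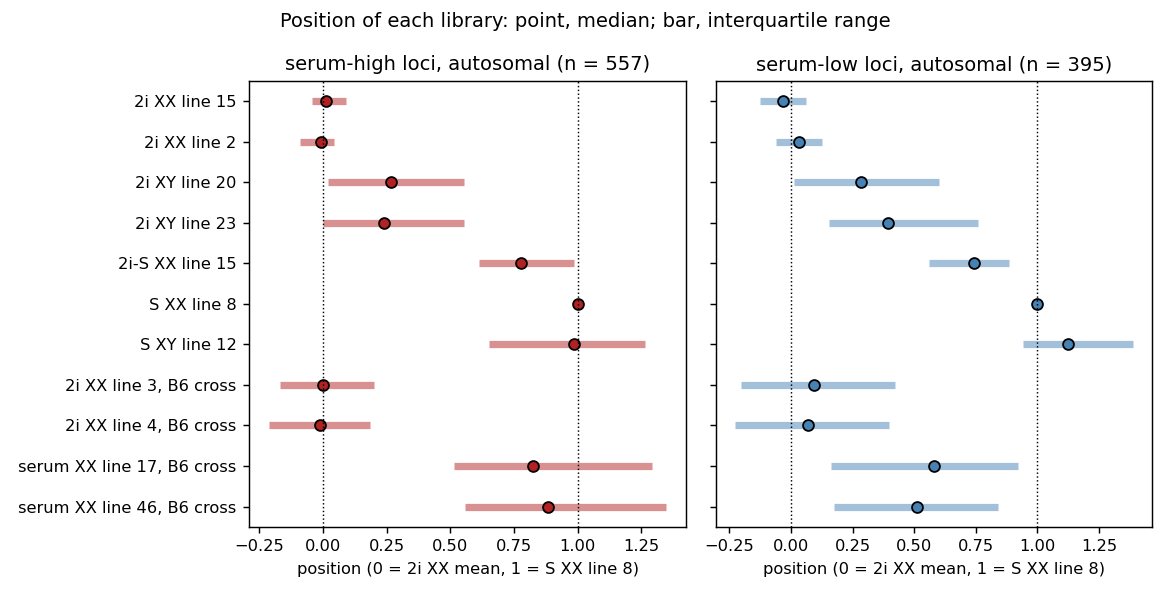
Position of each library on the scale, for autosomal loci higher in serum (left) and lower in serum (right). Points are medians over loci and bars the interquartile range over loci, which is not an error between replicates. The moved culture (2i-S XX line 15) has medians of 0.78 and 0.74, to the right of every 2i line and to the left of the S lines of its own cross.

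Genes downstream of ERK, the pathway that 2i blocks, were near the serum level where 2i and serum differed. Of 22 ERK pathway genes kept, 7 were on the scale, all serum-high, where 4.51% of all loci were. Of these 7, 6 stood near or past serum, beside 53.9% of all serum-high loci (median positions 0.94 and 0.77). In the moved culture 10 of the 22 stood at least 1 log2 unit above each 2i XX line and none below, where 3.75% and 2.15% of all loci did. Egr1, an early-response transcription factor, was at 0.0859 RPKM in the parent, 0.156 in line 2, 11.1 in the moved culture and 11.9 in line 8. Dusp6, the ERK phosphatase, was at 0.563, 1.249, 10.3 and 14.5 RPKM in the same order, and Spry4, a feedback inhibitor, was listed at 0 in the parent and stood at 0.101, 4.04 and 4.56 in the others. Both serum cultures were thus above both 2i lines for all 3 genes, with positions of 0.97, 0.85 and 0.94.

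Etv4, an ETS factor induced by FGF and ERK, stood higher in the moved culture than in line 8 (0.602 RPKM in the parent, 0.922 in line 2, 15.7 in the moved culture, 10.1 in line 8), and Myc lower (4.09, 12.8, 19.9 and 30.1 RPKM). Of the 22 genes, 4 stood at least 1 log2 unit above line 8 (Fos, Fosb, Phlda1 and Ier3), as 1.57% of all loci did, and all of these but Ier3 stood that far above both 2i lines as well. Fos, a subunit of the AP-1 factor, was at 4.24 RPKM in the parent, 1.03 in line 2, 17.7 in the moved culture and 5.15 in line 8. Serum line 12 had 23.4 RPKM of Fos and 61.7 RPKM of Egr1, so the moved culture lay between the serum lines for Fos and below both for Egr1. The feedback inhibitors Spry2, Spred1 and Spred2 and the ETS factor Etv5 were already at 2.92 to 156 RPKM in the 2i lines and differed by less than 1 log2 unit between the moved culture and any of the other 3.

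The de novo DNA methyltransferases lay between 2i and serum. Among 16 genes of the DNA methylation machinery, they were the only 2 on the scale (12.5%, beside 7.95% of all loci). Dnmt3a was at 32.8 RPKM in the parent, 33.4 in line 2, 54.1 in the moved culture and 96.9 in line 8 (position 0.46), and Dnmt3b (chr2:153649449-153687730, mm10) at 9.86, 12.3, 47.0 and 150 RPKM (position 0.55). Serum line 12 had 161 RPKM of Dnmt3a and 172 of Dnmt3b, so the moved culture was below both serum lines for each gene and above all 4 2i lines of the cross, which had 26.9 to 33.4 and 9.86 to 19.8 RPKM.

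Dnmt3l, which encodes the cofactor of those enzymes, was high in the parent already (122 RPKM) and low in line 2 (29.7), and stood at 159 in the moved culture and 212 in line 8; it is not on the scale because the parent lies within 1 log2 unit of line 8. Measured from the parent alone, its position was 0.47. The maintenance enzyme Dnmt1 stood at 73.8 RPKM, inside the range of the other 3 libraries (65.3 to 85.0), and its partner Uhrf1, which recruits it at replication forks, was lowest in the moved culture (155 RPKM beside 193 to 209). Tet1 and Tet2, which oxidise methylcytosine, differed by at most 0.59 log2 units from any of the others. Zfp57, the zinc-finger protein that keeps imprints methylated, was at 226 RPKM in the parent, 248 in line 2, 200 in the moved culture and 118 in line 8, nearer to 2i. Bisulfite libraries of these lines were not analysed here.

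Core pluripotency genes stayed high throughout, and 3 naive factors lay between 2i and serum. Of 12 core genes, only Lin28a, an RNA-binding protein that marks the shift away from the naive state, was on the scale (24.4 RPKM in the parent, 35.0 in line 2, 94.4 in the moved culture, 164 in line 8, position 0.68). Pou5f1 was at 2154 RPKM in the moved culture and 1571 to 1806 in the other 3. Nanog was at 563 RPKM in the parent, 677 in line 2, 527 in the moved culture and 326 in line 8, so that the moved culture stood close to the 2i lines (position 0.25).

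Among 16 naive genes, 4 were serum-low and 1 serum-high, where 3.44% and 4.51% of all loci were, and the other 11 were not on the scale. Tfcp2l1, a transcription factor of the naive network, was at 81.7 RPKM in the parent, 122 in line 2, 38.9 in the moved culture and 27.0 in line 8 (position 0.72). Prdm14, which holds down Dnmt3b and FGF signalling, was at 55.2, 77.9, 39.6 and 26.6 RPKM (0.56), and Tbx3, a T-box factor, at 42.3, 82.3, 25.2 and 13.5 RPKM (0.58). For these 3 genes the moved culture lay below both 2i lines and above line 8. Socs3, a feedback inhibitor of LIF signalling, was not lowered at all: 96.5 and 72.5 RPKM in 2i, 99.98 in the moved culture and 35.4 in line 8, although serum line 12 also had 110 RPKM. The serum-high Gbx2 reached 10.1 RPKM, from 1.53 and 2.89 in 2i towards 11.9 in line 8. Klf2, Klf4, Klf5 and Esrrb were among those not on the scale.

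Of 16 genes of the formative and primed epiblast, which mark the step after the naive state, 6 were on the scale, all serum-high (4.51% of all loci were). All 6 lay between 0.25 and 0.75 (0.56 to 0.74), as 42.0% of all serum-high loci did. Of the 16, 5 stood at least 1 log2 unit below line 8, where 0.707% of all loci did. Fgf5, a growth factor of the primed epiblast, was at 0.0848 RPKM in the parent, 0.0320 in line 2, 1.97 in the moved culture and 5.58 in line 8. Pou3f1, a POU factor, was at 2.204, 2.42, 7.79 and 15.2 RPKM, and Cldn6, a tight-junction protein, at 1.94, 1.52, 14.7 and 39.2 RPKM. The moved culture was therefore above both 2i lines and below line 8 for these 3 genes. Cldn6 stood at a similar level in the 2i XY lines (14.6 and 10.7 RPKM). Otx2, a homeobox factor of the formative state that is not on the scale, was lowest in the moved culture, at 16.3 RPKM beside 48.1 in the parent, 29.1 in line 2 and 33.9 in line 8, and the 2i XY lines had 6.82 and 2.32 RPKM.

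**Figure D3:**
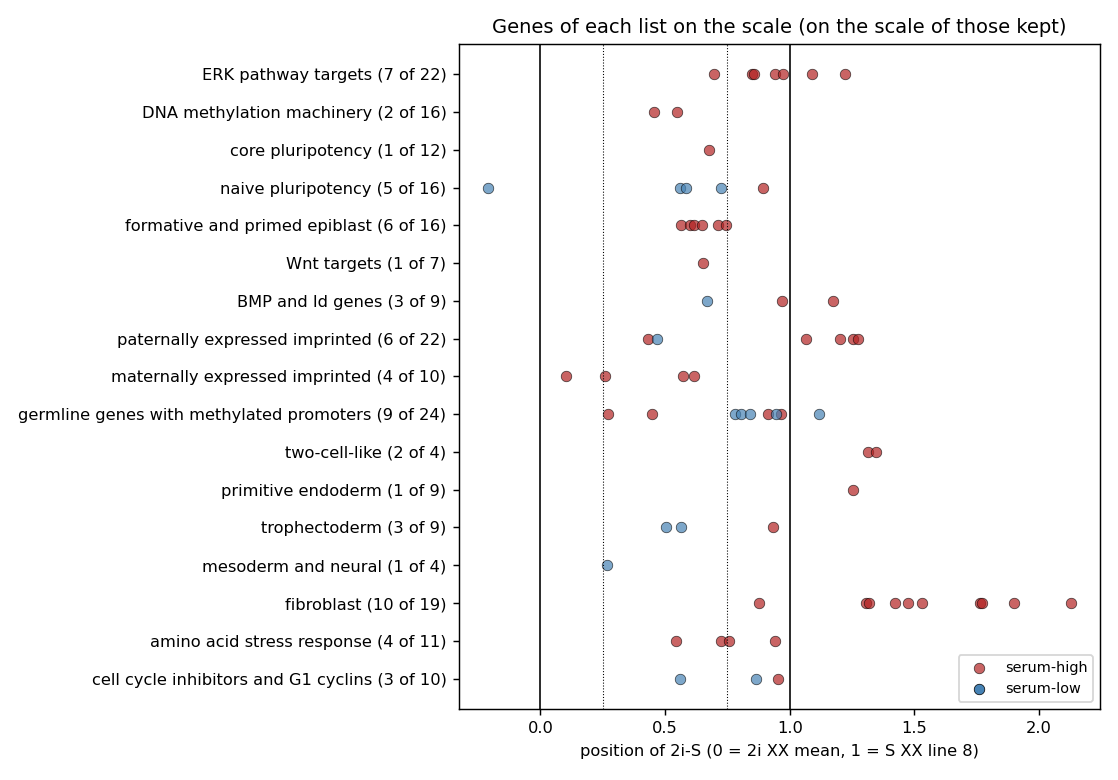
Position of the moved culture for each gene of a list that is on the scale, with 0 the mean of the 2i XX lines and 1 serum line 8. Red points are serum-high and blue points serum-low genes, dotted lines mark 0.25 and 0.75, and the numbers give genes on the scale of those kept. ERK targets gather around 1 and all fibroblast genes but 1 lie beyond it, formative genes at 0.56 to 0.74, and the maternally expressed imprinted genes at 0.10 to 0.62.

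Imprinted genes, which are read from only 1 parental copy under the control of methylation marks set in the germ cells, are given here by the copy that is active. Among 10 maternally expressed genes kept, 4 were on the scale (40.0%, beside 7.95% of all loci), all serum-high. None of the 4 lay near or past serum, where 53.9% of all serum-high loci did. Grb10 (chr11:11930507-12038683, mm10), an adaptor that restrains insulin and growth factor signalling, was at 15.7 RPKM in the parent, 14.4 in line 2, 17.4 in the moved culture and 59.4 in line 8. The moved culture thus held the 2i level of Grb10 (position 0.10), while serum line 12 stood with line 8, at 69.3 RPKM.

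The other three lie within a few neighbouring genes of chromosome 7, in the imprinted domain of Kcnq1ot1. Cdkn1c (chr7:143458338-143461050), a cyclin-dependent kinase inhibitor, was at 1.51 RPKM in the parent, 1.48 in line 2, 12.9 in the moved culture and 49.2 in line 8 (position 0.57). Phlda2 (chr7:143501544-143503150), which restrains placental growth, was at 1.93, 1.75, 21.1 and 77.8 RPKM (position 0.62). Between them, the transporter gene Slc22a18 (chr7:143473735-143499334) was at 0.330, 0.0623, 0.468 and 1.69 RPKM (position 0.26). The moved culture was above both 2i XX lines and below line 8 for each of the 3. For Slc22a18, however, it stood close to the parent (0.468 and 0.330 RPKM), and only line 8 was above 1 RPKM. Phlda2 was no higher than in the 2i XY lines (28.6 and 27.2 RPKM). The noncoding RNAs Kcnq1ot1, H19 and Meg3 were not analysed here.

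Of 22 paternally expressed imprinted genes kept, 6 were on the scale (27.3%, beside 7.95% of all loci). Near or past serum were 4 of the 6, beside 52.3% of all loci on the scale, and these 4 are Igf2, Nnat, Snrpn and Snurf. Of the 22 genes, 7 stood at least 1 log2 unit above each 2i XX line in the moved culture (3.75% of all loci did) and none below. Snrpn, whose transcript also carries Snurf so that reads may be split between the names, was at 62.6 RPKM in the parent, 68.0 in line 2, 200 in the moved culture and 160 in line 8. Nnat, a small membrane protein of the nervous system, was at 1.35, 1.52, 7.08 and 5.23 RPKM (position 1.28), and Peg10, a retrotransposon-derived gene of the placenta, at 31.8, 19.4, 65.5 and 56.3 RPKM. The moved culture was the highest of the 4 for each of these. Serum line 12 had 92.3 RPKM of Snrpn, less than either XX serum culture.

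Igf2, the fetal growth factor, was at 0.484 and 0.0972 RPKM in 2i, 8.44 in the moved culture and 7.34 in line 8, but it is also a fibroblast gene (551 RPKM in the MEF mean). The estimated fibroblast share amounts to 93.7% of its level in the moved culture and 43.9% in line 8, and the part of this RNA in the result was not tested. A pair of genes stayed between the media. Plagl1, a zinc-finger factor that heads a network of imprinted genes and is serum-low, was at 29.4 RPKM in the parent, 59.97 in line 2, 14.3 in the moved culture and 3.71 in line 8 (position 0.47). Sfmbt2, a Polycomb protein, was at 2.95, 3.35, 5.92 and 12.6 RPKM (position 0.43), though serum line 12 had 2.42 RPKM, the level of the 2i lines.

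**Figure D4:**
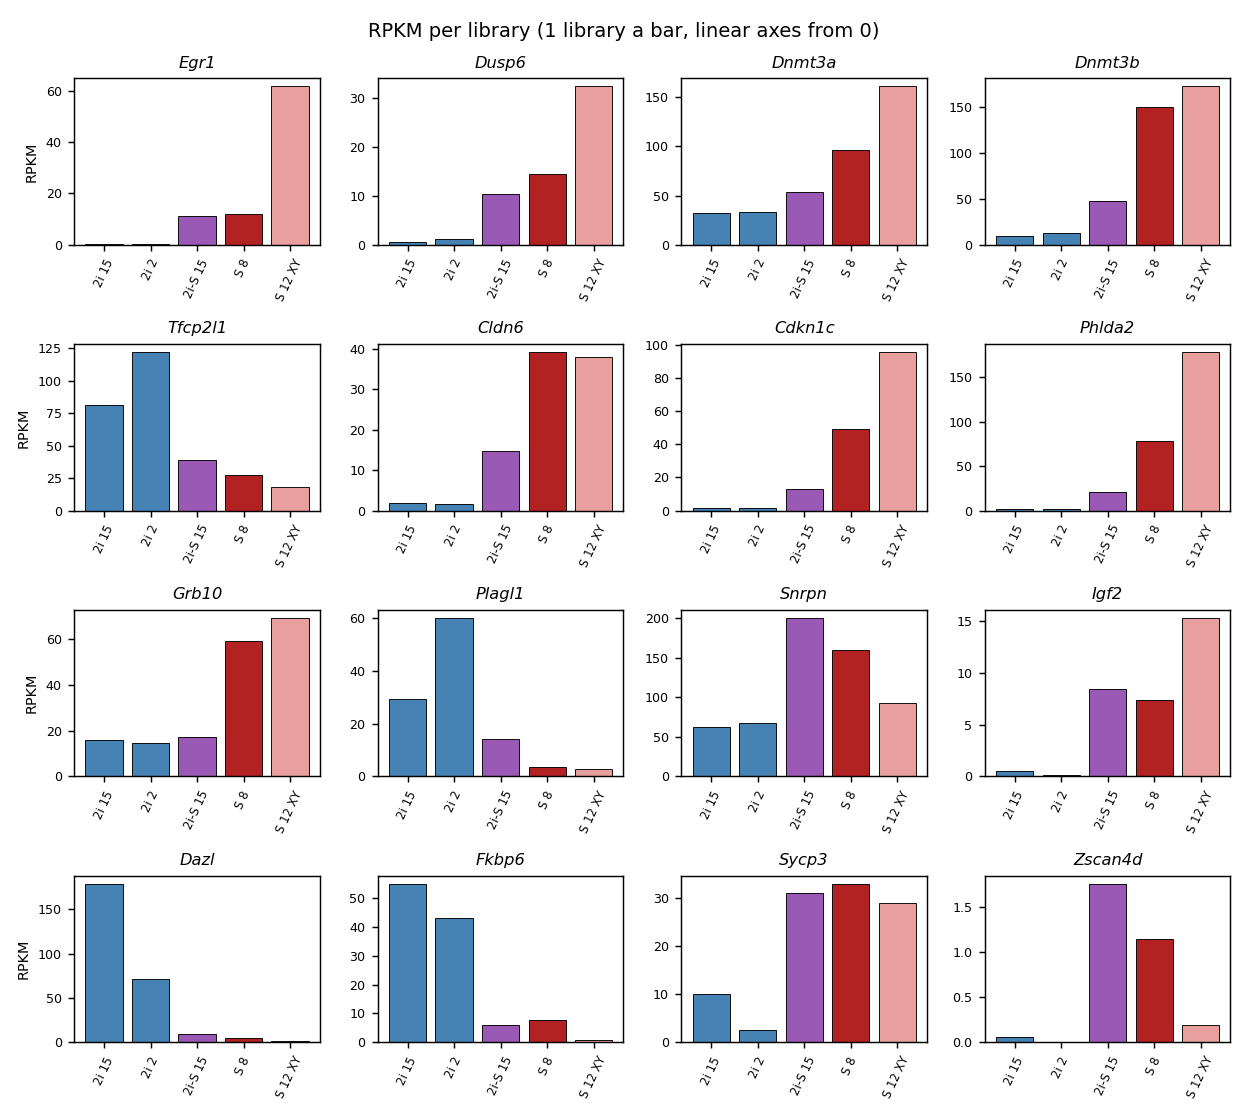
RPKM of 16 genes in the 2i XX lines 15 and 2 (blue), the culture moved to serum (2i-S 15, purple), serum line 8 (red) and serum XY line 12 (pale red), 1 library a bar on linear axes that start at 0. Egr1 and Sycp3 stand near line 8 in the moved culture (11.1 and 31.0 RPKM), Dnmt3b, Cdkn1c and Phlda2 between 2i and serum, and Grb10 at the 2i level (17.4 RPKM).

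Germline genes are known to be held silent outside the germ line by methylation of CpG-rich promoters, and here they split in both directions. Of 24 kept, 9 were on the scale (37.5%, beside 7.95% of all loci), 5 of them serum-low and 4 serum-high. Near or past serum were 7 of the 9, beside 52.3% of all loci on the scale. Promoters of 22 of the 24 matched the RefSeq promoter table (GRCm38.p6, the mm10 assembly), with 1 promoter taken per gene. The promoters of Dazl and Fkbp6, which were low in both serum cultures, and of Sycp3 and Mael, which were high in both, are shown to compare these opposite groups, with capitals marking each CpG.
Dazl (chr17:50293571-50293870, minus strand): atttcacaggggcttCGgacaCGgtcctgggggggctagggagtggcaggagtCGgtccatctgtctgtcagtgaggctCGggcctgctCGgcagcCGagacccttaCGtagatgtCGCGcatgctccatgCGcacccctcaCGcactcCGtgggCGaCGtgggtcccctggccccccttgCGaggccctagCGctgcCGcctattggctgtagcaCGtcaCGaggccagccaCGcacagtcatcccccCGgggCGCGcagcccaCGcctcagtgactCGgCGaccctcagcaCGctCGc
Fkbp6 (chr5:135349995-135350294, minus strand): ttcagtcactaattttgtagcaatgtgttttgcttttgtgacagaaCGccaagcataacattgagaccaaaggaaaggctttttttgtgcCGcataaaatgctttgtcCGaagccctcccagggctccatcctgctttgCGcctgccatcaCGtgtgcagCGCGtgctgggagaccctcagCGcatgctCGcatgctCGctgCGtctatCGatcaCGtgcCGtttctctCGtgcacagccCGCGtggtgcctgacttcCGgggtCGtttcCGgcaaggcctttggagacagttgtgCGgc
Sycp3 (chr10:88459337-88459636, plus strand): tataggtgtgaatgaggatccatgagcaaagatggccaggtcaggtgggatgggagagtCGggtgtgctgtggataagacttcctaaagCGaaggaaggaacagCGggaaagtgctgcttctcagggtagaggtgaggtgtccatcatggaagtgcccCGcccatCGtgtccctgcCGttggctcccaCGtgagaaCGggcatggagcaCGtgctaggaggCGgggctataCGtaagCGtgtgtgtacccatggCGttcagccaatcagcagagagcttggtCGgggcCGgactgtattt
Mael (chr1:166238695-166238994, minus strand): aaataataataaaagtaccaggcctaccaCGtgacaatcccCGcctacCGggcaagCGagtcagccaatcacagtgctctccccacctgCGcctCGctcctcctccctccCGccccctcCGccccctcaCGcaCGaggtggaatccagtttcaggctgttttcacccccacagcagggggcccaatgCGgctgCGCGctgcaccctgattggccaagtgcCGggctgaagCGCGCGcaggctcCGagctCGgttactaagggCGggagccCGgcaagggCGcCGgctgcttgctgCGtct
These 300 bases hold 28 CpGs in Dazl and 21 in Fkbp6, and 15 in Sycp3 and 24 in Mael, so the groups overlap in CpG number. The median was 19.5 over the 22 germline promoters and 21 over the 9816 matched genes among those kept. The hexamer CACGTG (its own reverse complement, in the windows above as caCGtg) was found in 12 of the 22 (54.5%), beside 10.3% of the matched genes kept and 7.24% of all 27025 promoters of the table. Fkbp6, Sycp3 and Mael hold it and Dazl does not. The motif TTCCCGC, searched on both strands and free to overlap others, was found in 8 of the 22 (36.4%), beside 8.74% of the matched genes kept. A match is a description of these letters only.

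Dazl, an RNA-binding protein of germ cells, was at 178 RPKM in the parent, 70.8 in line 2, 8.88 in the moved culture and 4.46 in line 8 (position 0.80). Fkbp6, a chaperone of the piRNA pathway, was at 55.1, 43.3, 6.10 and 7.70 RPKM (1.12), and the testis tubulin Tuba3a, whose reads may be shared with Tuba3b, at 56.7, 37.4, 7.38 and 6.58 RPKM (0.95). Both serum cultures lay below both 2i lines for these genes. The 2i XY lines had 9.62 and 4.30 RPKM of Dazl and 13.6 and 8.12 of Fkbp6, close to the moved culture. In the other direction, Sycp3, of the meiotic chromosome axis, was at 10.1 RPKM in the parent, 2.49 in line 2, 31.0 in the moved culture and 32.9 in line 8, and Mael, of the piRNA pathway, at 3.13, 1.23, 13.3 and 15.5 RPKM. Ddx4 and Mov10l1 went less far (positions 0.45 and 0.27), and the other 15 genes were not on the scale.

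Over the whole scale, promoters were poorer in CpG than those of other genes. The median was 21 CpGs among 9079 matched genes kept but not on the scale, 15 for serum-high and 13 for serum-low genes. Among serum-low genes it was 15 for those between 2i and serum (149 genes) and 11 for those near or past serum (169 genes). Among serum-high genes it was 17 (182 genes) and 14 (215 genes). In both directions the genes near or past serum thus had fewer CpGs than those between.

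The Zscan4 genes of the two-cell-like state, a rare state of ESCs resembling the 2-cell embryo, were at trace level in 2i and higher in both XX serum cultures. Zscan4d was at 0.0599 RPKM in the parent, listed at 0 in line 2, and stood at 1.75 in the moved culture and 1.14 in line 8. Zscan4f was at 0.120, 0, 1.904 and 1.28 RPKM. Of 11 genes of the list only 4 were kept, and all 4 stood at least 1 log2 unit above each 2i XX line, where 3.75% of all loci did. For a gene near 0 in 2i, reaching 1 RPKM in the moved culture meets that rule almost by construction, so no conclusion is drawn from this count. Serum line 12 had only 0.196 RPKM of Zscan4d and 0.0941 of Zscan4f. Zscan4 copies are nearly identical, so the split of reads between them is uncertain.

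Smaller groups lay near serum or between the media. In the BMP list, Bmp4 was at 1.71 RPKM in the parent, 2.16 in line 2, 13.7 in the moved culture and 14.5 in line 8 (position 0.97), and Id1, a BMP target, was at 1.06, 1.71, 11.5 and 8.73 RPKM (1.18). The 2i XY lines already had 10.3 and 17.6 RPKM of Bmp4. Id4, a serum-low member, had a position of 0.67. Among 11 genes of the amino acid stress response, 4 were serum-high, where 4.51% of all loci were. Trib3 (0.94) and Chac1 (0.76) lay near serum, and Phgdh (0.73) and Sesn2 (0.55) between. Chac1, which breaks down glutathione, was at 7.53, 7.85, 25.3 and 36.5 RPKM, but at only 11.1 RPKM in serum line 12.

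Cyclin E1 (Ccne1), which drives entry into S phase, was at 51.8 RPKM in the parent, 86.5 in line 2, 169 in the moved culture and 177 in line 8. The cell cycle inhibitor locus Cdkn2a, at 56.9, 56.7, 32.6 and 20.9 RPKM, lay between (0.56). Lef1, a Wnt effector that is serum-high, was at 13.1, 8.20, 36.9 and 71.3 RPKM (0.65) and was the only 1 of 7 Wnt targets on the scale. Axin2 and Sp5, direct targets of beta-catenin, were lowest in the moved culture (3.25 and 0.979 RPKM), but the 2i XX lines were themselves far apart (5.15 and 12.8 RPKM of Axin2, 2.00 and 11.3 of Sp5). Krt8, a keratin of simple epithelia and the trophectoderm, was at 4.31, 3.72, 25.6 and 29.0 RPKM, whereas the trophectoderm factor Gata3 was serum-low (4.93, 6.23, 1.93 and 0.322 RPKM, position 0.50). The primitive endoderm list had 1 gene on the scale, Dab2 (0.541, 0.438, 4.38 and 3.15 RPKM), of which fibroblast RNA could account for 25.7% in the moved culture. Gsc was the mesoderm gene on the scale, at 3.24 RPKM in the moved culture beside 3.84 and 5.18 in 2i and 1.11 in line 8. None of 16 glycolysis, 17 cholesterol synthesis and 9 YAP target genes was on the scale, where 7.95% of all loci were. With lists this short and that share, no conclusion is drawn from these counts.

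Among loci with a difference of at least 2 log2 units and 5 RPKM in some library (139 serum-high and 97 serum-low), some were at the serum level and others had hardly left 2i. Rarg, a retinoic acid receptor, was at 5.75 RPKM in the parent, 5.22 in line 2, 48.0 in the moved culture and 48.4 in line 8. The uncharacterised gene 1700016D06Rik was at 56.8, 43.3, 0.417 and 0.379 RPKM. Others with a position within 0.06 of 1 included Ece1, Myo1g, Pdlim2, Sepp1, Ubap1l and Fkbp10 among serum-high genes and Mal, Myom2, Atp6v1c2, Gpr143 and Cdo1 among serum-low genes.

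At the other end, the predicted gene Gm17604 was listed at 0 in all 4 2i lines of the cross and in the moved culture, and stood at 69.8 RPKM in line 8 and 70.1 in line 12. An exact 0 beside such levels can be a failed estimate. Foxi3, a forkhead factor, was at 0.533 and 0.293 RPKM in 2i, 1.56 in the moved culture, 5.73 in line 8 and 5.46 in line 12. Pim2, a kinase, was at 17.1, 13.2, 40.7 and 148 RPKM in the 4 XX libraries (position 0.43) and at 73.1 in line 12. For these genes both serum lines stood above the moved culture. For Esp24, Slc40a1 (the iron exporter ferroportin), Irgm1 and Pcdhgc5 the moved culture also lay low (0.00 to 0.37), but so did serum line 12 (0.00 to 0.11), so that line 8 differed from both. Arrb1, an arrestin, had a position of 0.36, and 0.58 in line 12. The serum-low genes least lowered were Eif4ebp3 (0.10, against a value in line 8 so near 0 that it can be a failed estimate), the GABA receptor gene Gabbr1 (0.19), Msln (0.36), Rsrp1 (0.40), Pramel6 (0.40), Vax2 (0.44), Meis2 (0.44) and Plagl1. Gabbr1 was at 26.5 RPKM in the parent, 13.3 in line 2, 14.2 in the moved culture and 3.94 in line 8. Pramel6, of a family expressed in the preimplantation embryo, was at 14.0, 11.8, 5.45 and 1.10 RPKM.

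The moved culture stood outside the range of the other 3 libraries by at least 1 log2 unit at 66 loci above (0.513%) and 6 below (0.0466%). Most of the top genes above were matrix and fibroblast genes. Bgn, the proteoglycan biglycan, was at 0.613 RPKM in the parent, 0.536 in line 2, 47.5 in the moved culture and 13.8 in line 8, and Col1a2, a collagen I chain, at 0.329, 0.487, 20.1 and 5.53 RPKM. The estimated fibroblast share amounts to 64.8% and 100% of these levels in the moved culture. Both genes are among the fibroblast markers from which that share was estimated. These percentages are therefore not independent of it, and no conclusion is drawn from them. Serum XY line 12, which is not among the libraries compared here, was no lower in such RNA. It stood at 1.63% of the MEF level beside 1.44% in the moved culture, with 52.4 RPKM of Bgn. On the fibroblast list 10 of 19 genes kept were serum-high (4.51% of all loci were), with a median position of 1.502, and 10 stood at least 1 log2 unit above line 8 (1.57% of all loci did). Over the 66 loci the estimate reached 50% at 19 and stayed under 10% at 31. Mgp, a matrix protein that blocks calcification, was at 26.4 RPKM in the moved culture beside at most 0.177 in 2i and 7.97 in line 8. Fibroblast RNA could account for 2.71% of the level in the moved culture. The position of Mgp was 1.53 in the moved culture and 1.69 in serum line 12. Tnc, Cav1, Col5a2, C1qtnf5 and Il1rn complete the 8 highest. Of the genes below, the metallothionein Mt1 was at 560 RPKM in the parent, 592 in line 2, 154 in the moved culture and 327 in line 8, though at 120 in line 12. Cyclin D2 (Ccnd2) was at 41.6, 15.3, 6.34 and 15.8 RPKM, and Tulp2 at 3.90, 3.61, 0.00131 and 1.14. Pet117, Gm20431 and Gm20479 were at 0.0182 RPKM or less in the moved culture, where such a value can be a failed estimate.

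Along the genome, chromosomes 7 and 8 stood apart in the moved culture. Over genes with a mean of at least 3 RPKM in the 4 libraries, the median of chromosome 7 (787 genes) was 0.15 log2 units above that of the other autosomes against the parent, 0.16 against line 2 and 0.13 against line 8. For chromosome 8 (506 genes) these values were 0.13, 0.11 and 0.13. The other 17 autosomes lay between −0.15 and 0.04 against the parent, −0.08 and 0.03 against line 2, and −0.08 and 0.04 against line 8. The 2 chromosomes were at −0.02 and 0.01 between the 2i XX lines. The offset was thus seen in the moved culture against all 3 other libraries and not between the 2i XX lines. Split into 4 runs of equal gene number in order of position, each chromosome had an unadjusted median above 0 in every run against each library (0.04 to 0.31 for chromosome 7 and 0.08 to 0.27 for chromosome 8). The autosomal medians were 0.09 against the parent, 0.01 against line 2 and 0.01 against line 8, and every run lay above these except the third run of chromosome 7 against the parent (0.04). Cdkn1c, Phlda2, Snrpn, Igf2, Ccne1 and the Zscan4 genes lie on chromosome 7, and the part of this offset in their values was not tested.

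X-linked genes (387) were lower in the moved culture than in the parent. Their median difference less that of the autosomes was −0.27 log2 units against the parent, −0.13 against line 2 and −0.02 against line 8. By the same measure, line 2 itself stood at −0.19 against line 15. With the 2i XY lines as baseline and the autosomal median taken off, the X-linked level was 1.03 log2 units in the parent, 0.89 in line 2, 0.80 in the moved culture and 0.87 in line 8, beside 0.03 in serum XY line 12. Xist was not analysed here. The X chromosome held 48 of the 443 serum-low loci, 9.52% of its 504 loci kept, beside 3.44% of all loci. Many of these loci belong to the Xlr, Magea and Rhox gene families, whose copies may share reads, so they may not count as separate loci.

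**Figure D5:**
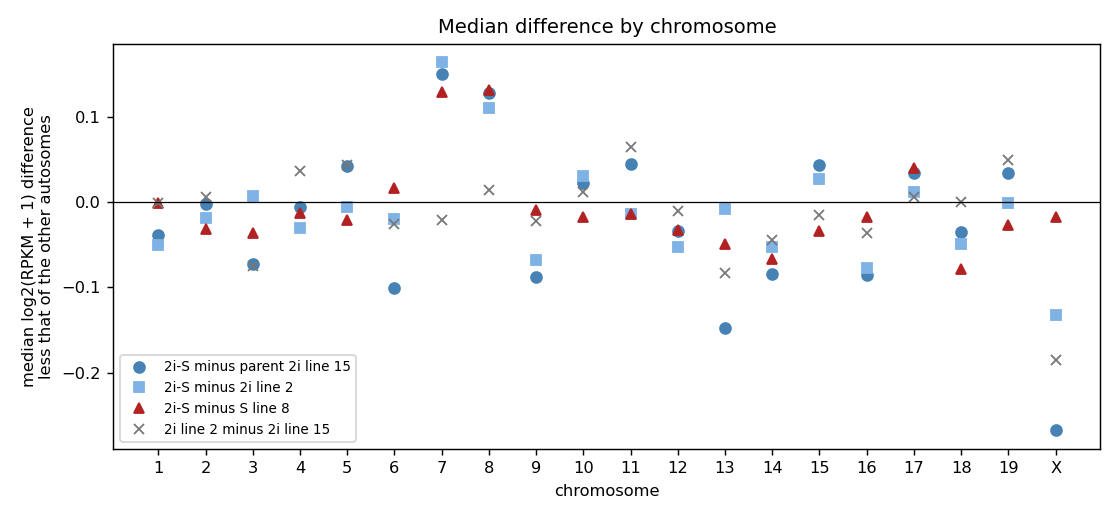
Median difference in log2(RPKM + 1) over the genes of each chromosome, less the median over the other autosomes (for the X, over all autosomes), with 1 symbol for each pair of libraries. Chromosomes 7 and 8 stand at 0.11 to 0.16 in the moved culture (2i-S) against each of the other XX libraries, and the X chromosome at −0.27 against the parent.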

How the data were processed

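RNA-seq of 26 libraries was used, and the 62 bisulfite samples were not analysed here. Values are RPKM per locus, deposited by the authors as 1 table, which per the labels came from stranded mRNA libraries. The submitters' processing notes name the mm10 build with TopHat2 2.1.0, Cufflinks 2.2.1, cutadapt 1.9.1 and Bowtie2 2.2.5. The tool that made the RPKM and the annotation release are not given in the sources used here.

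RPKM were taken to log2 after adding 1, with no further scaling, and loci at 1 RPKM or more in at least 1 of the 4 libraries were kept. Where a gene name had several loci, the locus with the highest mean was taken. Of 20 gene lists (311 genes), 12 genes had no match in the table. Genes were named by a rule: 39 checked genes, up to 4 scale members per list with the largest difference, the 8 lowest and the 8 nearest 1 in each direction among large differences, and the 8 highest and 8 lowest in the moved culture against all others. A few more are named where a count is explained. Members and lists were chosen with earlier results of these data known. The calculation of the positions was checked on simulated data built from the same 2i and line 8 values. Such a check cannot show what choosing loci by line 8 does to the positions. The work used numpy 2.4.6, pandas 2.3.3 and matplotlib 3.10.9 in Python 3.11.15.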

Additional observations from a re-analysis of the deposited data

How the results depend on the processing

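With 1 library of the moved culture and 1 of serum line 8, no value has a replicate error, and read depth is unknown. No paired analysis was possible because no result comes from a test. Both median positions stayed at 0.668 or more and the X-linked difference below 0 under every alternative run, but which count of a pair is the larger did not always hold, as for loci higher and lower than in line 8 at the higher fold rule and for serum-high and serum-low loci without 2i line 2 (950 and 991). With a pseudocount of 0.1, the median positions of serum-high and serum-low loci were 0.830 and 0.688, with 906 and 759 loci on the scale, 847 and 504 higher and lower in the moved culture than in both 2i XX lines, and 545 and 261 higher and lower than in line 8. With a pseudocount of 5 the counts were 202, 168, 158, 85, 33 and 24 in that order, and with a fold rule of 2 log2 units 108, 65, 81, 35, 6 and 8. A filter at 5 RPKM gave a serum-high median of 0.787, 387 serum-high loci and 291 higher than in 2i. The serum-high median was 0.751 after quantile normalization, 0.743 with fibroblast RNA subtracted, 0.815 with loci chosen in the XY lines and 0.910 with loci chosen in the B6 cross, where the serum-low median was 0.832. With lines 8 and 12 as serum, the serum-low median was 0.668, with 385 serum-high loci and 94 and 34 higher and lower than serum. Leaving out 2i line 2 or 15, the serum-high median was 0.755 to 0.824, serum-high loci 935 to 950, serum-low loci 651 to 991, and loci higher and lower in the moved culture than in 2i 726 to 888 and 483 to 685. The X-linked minus autosomal difference ran from −0.28 to −0.20. By construction a lower pseudocount or fewer libraries in the rule lets more loci pass, and a higher pseudocount, filter or fold fewer. The cause of the other changes was not tested.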
